A study of Mus musculus with 12 samples.

Results

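The region described is mouse chromosome 19 from 15 Mb to its distal end, measured by array-based comparative genomic hybridization (aCGH) in 12 liver tumors. Its members are the 823 array probes placed on chromosome 19 with a start above 15000000 in the mm8 build, of 42404 probes on the array and 1332 on chromosome 19. They run from chr19:15002820 to chr19:61288400, with a median spacing of 24.6 kb, and 716 of them carry 1 of 392 gene names. The region was chosen by low tumor to liver ratios in the spontaneous tumors, so those ratios, and the difference between the spontaneous and the post-hepatectomy tumors, are given as a description with no test.

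All 12 tumors came from Mdr2-KO/FVB mice, which lack Abcb4 (Mdr2), the canalicular phospholipid transporter, and develop hepatocellular carcinoma on chronic liver inflammation. The post-PHx group was 6 tumors (4 from males, 2 from females) taken at 9 months of age from mice that had 70% of the liver removed at 3 or 6 months. The spontaneous group was 6 tumors from mice without surgery, 2 from males at 14 months and 4 from females at 13 months, so that hepatectomy and age cannot be told apart. Each tumor was hybridized on 1 array, Cy5-labelled, against the Cy3-labelled liver DNA of its own mouse, taken away from the tumor, without a dye swap. The direction of the ratio rests on the dyes named for the channels in the labels, since the methods do not say which DNA took which dye and the labels give the labelling protocol as that of another array maker. Tumors were named by group, number and sex (PHx1M to PHx6F, Spon1M to Spon6F).

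In aCGH, tumor and reference DNA compete for the same probe, and the log2 ratio of the dyes falls when the tumor holds fewer copies of a sequence than the reference. A loss that only some of the cells carry gives a smaller fall, and a share of cells and a number of copies cannot be told apart from a ratio alone. Distal mouse chromosome 19 carries the Cyp2c cluster of hepatic cytochromes P450 and the Scd genes of fatty acid desaturation. Levels below are medians over the members of the log2 tumor to liver ratio, with the autosomal median of each array set to 0.

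The 12 arrays lay on 3 slides, and only the slide with PHx5M, PHx6F, Spon5F and Spon6F held both groups; Spon1M to Spon4F shared a slide, as did PHx1M to PHx4M. Between 802 and 821 members were measured per array, and the green signal of the members exceeded its background 6.92 to 26.1 times. Spon1M, Spon2M and Spon3F, from the same slide, stood apart by single probes with extreme ratios, which are described further on, and Spon2M had the widest difference between neighbouring probes (a robust SD of 0.26, against 0.15 to 0.22 in the others). The rule and the label of the region speak of spontaneous tumors in general, but the ratios were clearly low in only some of them.

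Chromosome 19 was lowest in Spon2M, with a median of -0.42 (a ratio of 0.749), followed by Spon1M at -0.26 (0.834) and Spon6F at -0.16 (0.895). Spon4F lay at -0.09, Spon3F at -0.02 and Spon5F at 0.02. The last 2 of these tumors lay within the range of the post-PHx tumors, and the other 4 lay below it. Among the post-PHx tumors, PHx4M and PHx1M were lowest (both -0.02), PHx2F and PHx6F lay at -0.01, PHx3M at 0.00 and PHx5M, the highest, at 0.03. Their mean was -0.01 ± 0.02 (SD, n = 6), with 5 of 6 below 0, and a difference from 0 was not found (exact sign-flip permutation test, two-sided, p = 0.5, the smallest possible being 0.0312). The spontaneous mean was -0.16 ± 0.16 (SD, n = 6), and the difference between groups was -0.15. The spread among the spontaneous tumors was thus as large as their mean. Without Spon2M the difference was -0.10, and on the slide that held both groups it was -0.08.

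**Figure D1:**
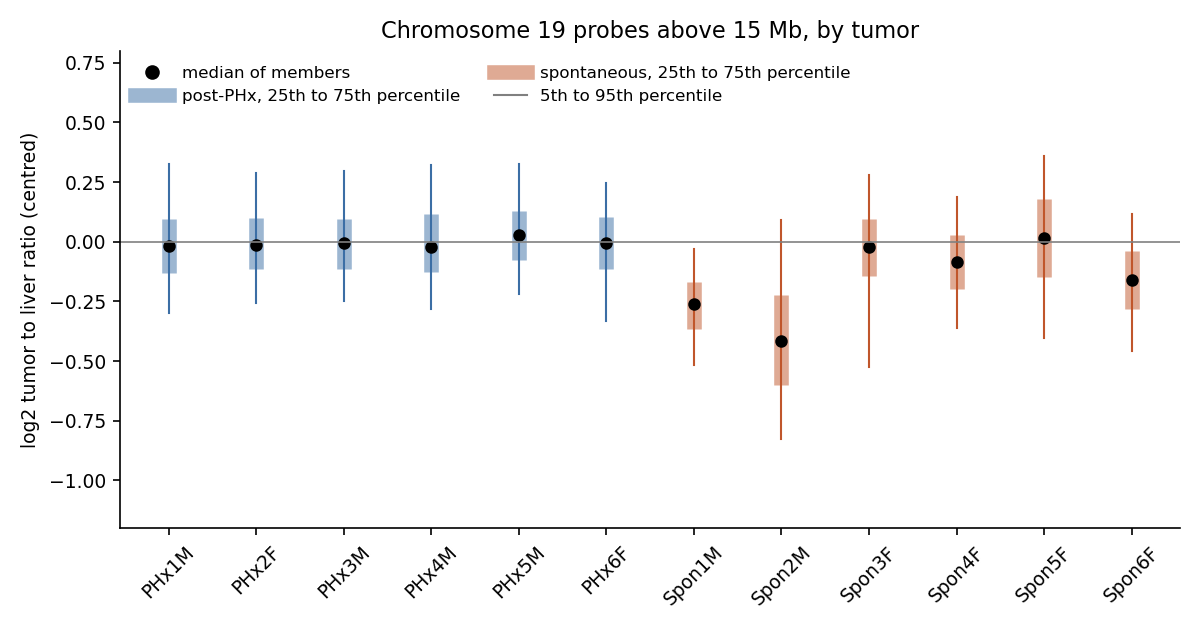
Log2 tumor to liver ratios of the chromosome 19 members in each of the 12 tumors (x axis), with the median as a black point, the 25th to 75th percentile as a thick bar and the 5th to 95th percentile as a thin line. The medians of Spon2M (-0.42), Spon1M (-0.26) and Spon6F (-0.16) lie lowest, and the 6 post-PHx medians lie between -0.02 and 0.03.

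The low level was a shift of nearly all members rather than of a subset in Spon1M and Spon2M. The share of members with a ratio below 0 was 96.5% in Spon1M, 92.0% in Spon2M, 83.0% in Spon6F and 70.6% in Spon4F. In Spon3F it was 54.7% and in Spon5F 47.3%, against 41.1% to 54.6% in the post-PHx tumors. Spon2M had the lower median but the smaller share, and its members were spread more widely, with the 25th and 75th percentiles at -0.60 and -0.22, against -0.37 and -0.17 in Spon1M.

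The level was even along the chromosome. Of 44 bins of 1 Mb with at least 3 members, all 44 were below 0 in Spon1M and in Spon2M, 43 in Spon4F and in Spon6F, 33 in Spon3F and 20 in Spon5F. Bins are means, so they carry the single low probes of Spon3F, whose members had a mean of -0.09 but a median of -0.02. In the post-PHx tumors 14 to 28 bins were below 0, so both signs were found in every one of them. Bin means ran from -0.50 to -0.10 in Spon1M, from -0.67 to -0.22 in Spon2M and from -0.34 to 0.01 in Spon6F. When the span was divided into 4 parts of equal length, the medians of Spon1M were -0.28, -0.27, -0.25 and -0.25 from proximal to distal, and those of Spon2M were -0.47, -0.43, -0.40 and -0.37. Spon6F went from -0.21 in the proximal part to -0.13 in the distal one. In these 3 tumors the distal part was thus less low than the proximal one, by 0.03, 0.10 and 0.08. The same step was 0.10 in Spon5F, which was not low, and between -0.01 and 0.06 in the post-PHx tumors.

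**Figure D2:**
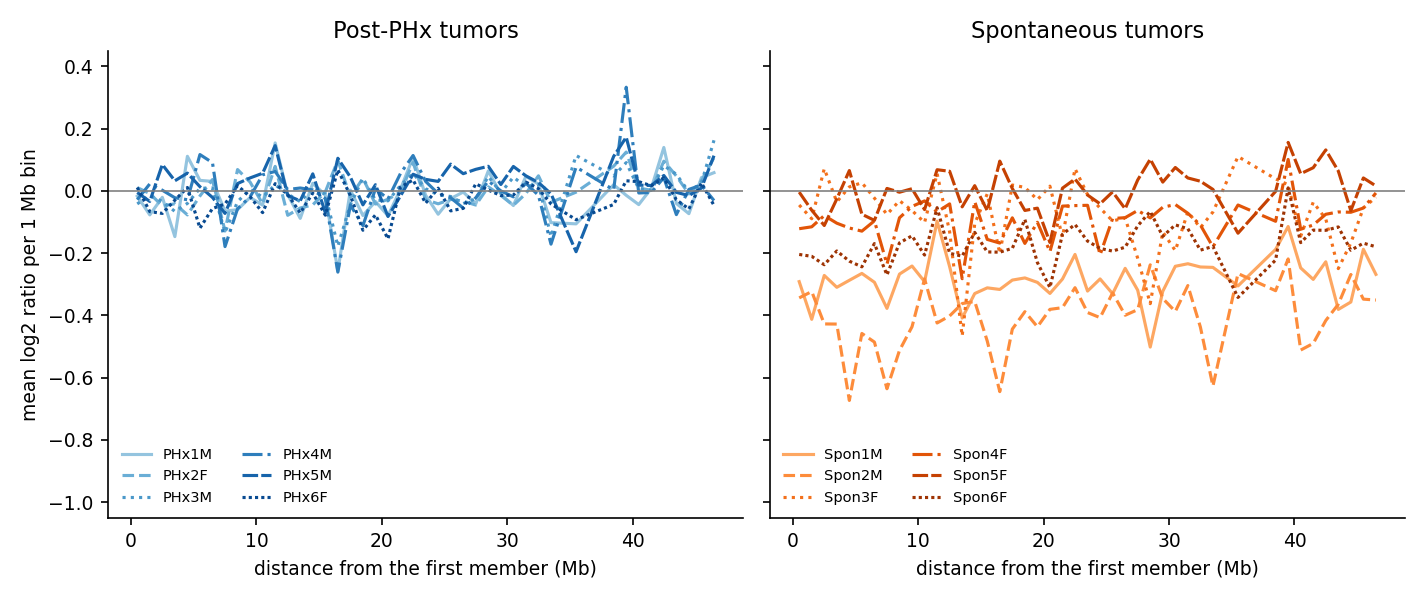
Mean log2 ratio of the 44 bins of 1 Mb (y axis) against the distance of the bin from the first member in Mb (x axis), 1 line per tumor, with the post-PHx tumors on the left and the spontaneous tumors on the right. All 44 bins of Spon1M and Spon2M lie below 0 along the whole span, without a step.

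The boundary of the region at 15 Mb was not a boundary in the data. The first 15 Mb of the chromosome, 509 probes that are not members, had a median of -0.43 in Spon2M, -0.24 in Spon1M, -0.13 in Spon6F and -0.08 in Spon4F, and -0.01 to 0.05 in the post-PHx tumors. The 5 members just inside the threshold averaged -0.55 in Spon2M, -0.29 in Spon1M and -0.18 in Spon6F. The 5 probes just outside it, which include probes of Tle4, a Groucho family co-repressor, averaged -0.31, -0.23 and -0.38. The same 3 tumors were low on both sides. Members with and without a gene name also had like medians, -0.26 and -0.27 in Spon1M, -0.42 and -0.43 in Spon2M and -0.15 and -0.20 in Spon6F.

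The 2 channels were also read apart, as a description, since the tumor channel holds the same values as the ratio that chose the region. Each channel was expressed as its level relative to the autosomes of the same array and to the median of the 12 arrays at each probe. The liver channel of the members lay between -0.02 and 0.02 on all 12 arrays. The tumor channel was -0.39 in Spon2M, -0.18 in Spon1M and -0.10 in Spon6F, and between 0.00 and 0.11 in the other 9. The livers of the 3 tumors lowest in the ratio were thus at the level of the other livers.

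The X chromosome gave a measure of the response of these arrays to 1 copy, since females carry 2 copies and males 1. The liver channel of the X probes was 0.39 ± 0.03 (SD, n = 6) in females and -0.47 ± 0.04 (SD, n = 6) in males, a step of 0.85 log2 units. Against that step, the fall of the chromosome 19 ratio was 48.9% in Spon2M, 30.7% in Spon1M, 18.8% in Spon6F and 10.1% in Spon4F. These shares set a ratio of 2 channels against a step in 1 channel. In the tumor channel alone the X step was 0.91. The chromosome 19 levels of that channel were -0.39 in Spon2M, -0.18 in Spon1M, -0.10 in Spon6F and -0.003 in Spon4F. On this scale 0 is the median of the arrays, low tumors included, and the post-PHx tumors averaged 0.04 ± 0.02 (SD, n = 6). In no tumor did the median of the chromosome reach the X step between 2 copies and 1. The tumors had been described as consisting mostly of tumor cells on sections, and admixture of normal cells was not measured here.

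**Figure D3:**
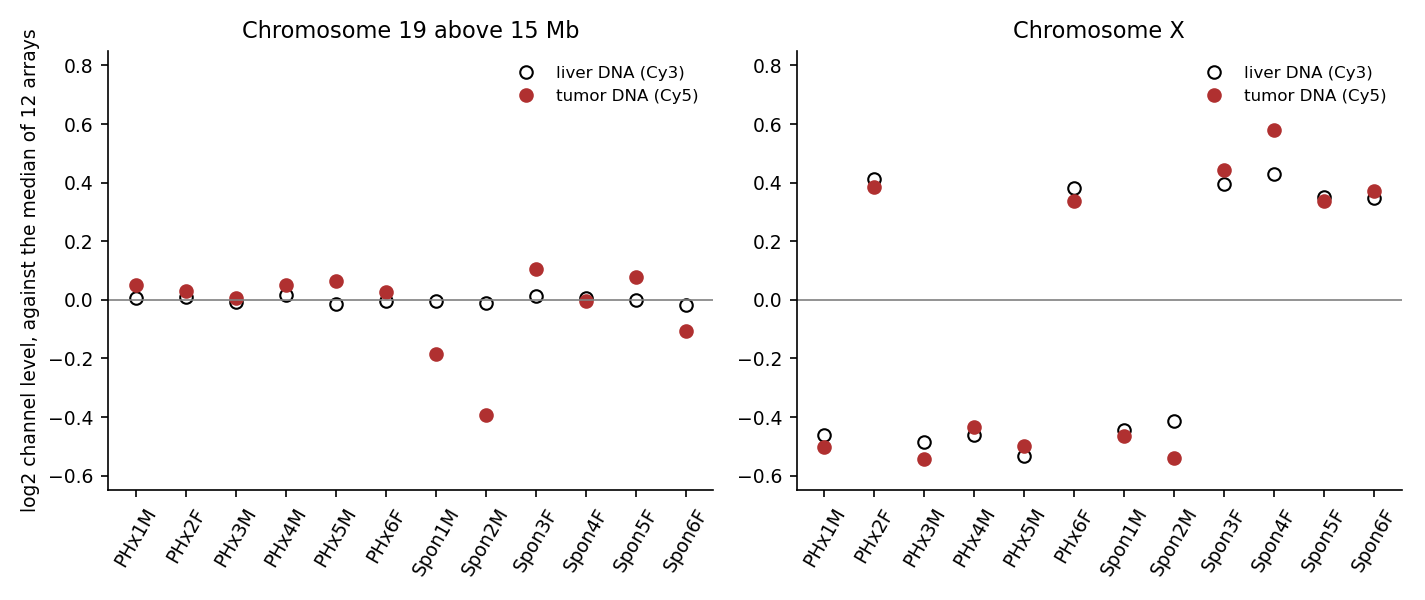
Log2 level of the liver DNA (Cy3, open points) and the tumor DNA (Cy5, filled points) by tumor, relative to autosomes and to the median of the 12 arrays, for the chromosome 19 members (left) and the X chromosome (right). On chromosome 19 the liver points stay between -0.02 and 0.02 while the tumor points of Spon2M, Spon1M and Spon6F fall to -0.39, -0.18 and -0.10. The X step between females and males was 0.85 in the liver channel.

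In the liver channel the spontaneous arrays were on average brighter, read over the members only and not over all probes. The green signal over background was 13.7 to 26.1 in the spontaneous and 6.92 to 16.8 in the post-PHx arrays, a difference of 0.85 on the log2 scale (exact permutation test, two-sided, n = 6 against 6, p = 0.00866, Benjamini-Hochberg adjusted p = 0.026 over 3 tests). The red signal over background was 4.89 to 10.1 and 3.76 to 8.42, a difference of 0.42 (exact permutation test, n = 6 against 6, p = 0.108, adjusted p = 0.162). On the slide with both groups these differences were -0.06 and -0.43. Most arrays of each group lay on a slide without the other group, so these tests cannot tell slide from group. In the green channel the spontaneous arrays ran from Spon6F (13.7) over Spon5F (17.5), Spon2M (19.8), Spon3F (22.3) and Spon1M (24.8) to Spon4F (26.1). A relation of brightness to the ratios was not tested.

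Among the 19 autosomes, chromosome 19 was the lowest in Spon1M and in Spon2M, the second lowest in Spon6F, the fourth lowest in Spon3F and the fifth lowest in Spon4F. Its rank from the lowest was 12 in Spon5F, and between 4 (PHx1M) and 15 (PHx5M) in the post-PHx tumors. Spon1M, Spon2M, Spon6F and Spon4F had other low autosomes as well. In Spon1M the next lowest autosome was chromosome 13, at -0.24, near the -0.26 of chromosome 19. Chromosome 4 was -0.38 in Spon2M and -0.21 in Spon1M, and it was low in PHx5M too (-0.23), a tumor in which chromosome 19 was at 0.03. Chromosome 18 was -0.31 in Spon6F, below chromosome 19 in the same tumor, but 0.22 to 0.32 in Spon1M, Spon2M and Spon4F. In Spon4F the lowest autosome was chromosome 1, at -0.09, the level that chromosome 19 had there. In Spon5F, where chromosome 19 was 0.02, the lowest was chromosome 14 at -0.47. These comparisons rest on the ratios that chose the region and have no test.

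**Figure D4:**
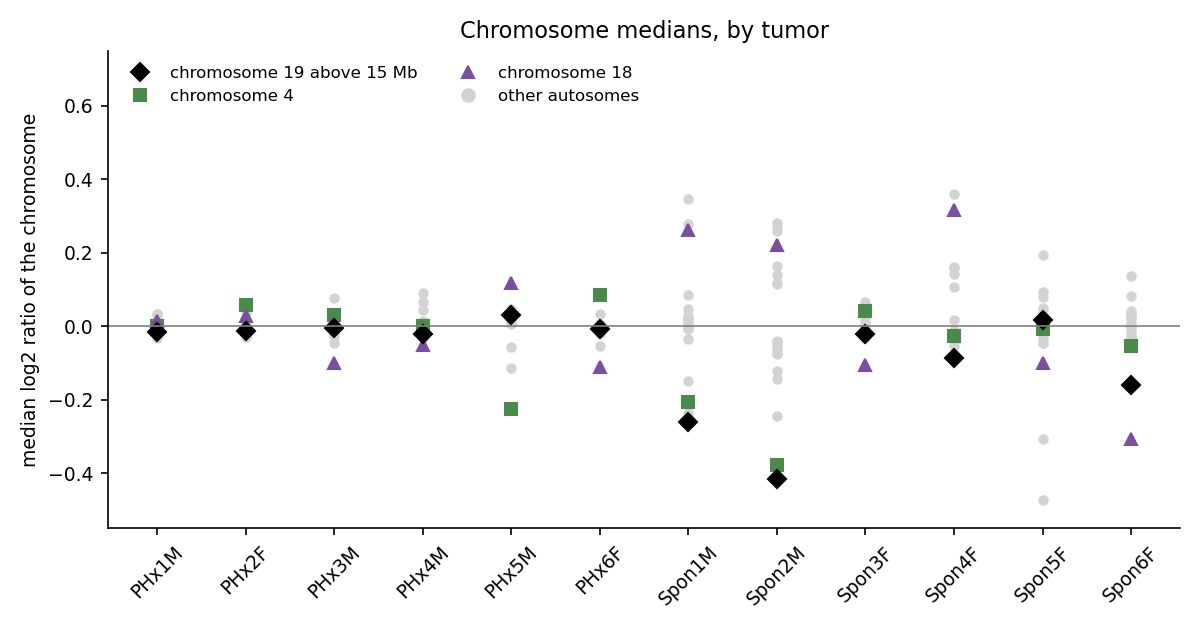
Median log2 ratio of each of the 19 autosomes (y axis) by tumor (x axis), with chromosome 19 above 15 Mb as diamonds, chromosome 4 as squares, chromosome 18 as triangles and the other autosomes as grey points. Chromosome 19 is lowest in Spon1M and Spon2M, while chromosome 18 is lowest in Spon6F and chromosome 14 in Spon5F.

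Deleted stretches were then called with an interval score modelled on ADM-2, the caller of the study. A stretch needed a score above 6, 2 or more probes and, at each probe, a fitted level 0.4 or further from 0. The study's methods set 0.4 on the average log2 ratio of a region instead. With 0.4 on the fitted level, the chromosome-wide shift was not called in any tumor from the deposited ratios. After normexp background correction, 5 deleted regions covered 816 members in Spon2M, and no share over all probes is given for that setting. From the deposited ratios, 4 pairs of a member and a tumor, 2 members in each of 2 spontaneous tumors, fell in deleted regions, and 0 in the post-PHx tumors. Over all autosomal and X probes, 1.32% of the pairs in the spontaneous and 0% in the post-PHx tumors were in deleted regions. At a filter of 0.25, 1 region covered all 821 measured members of Spon1M, 10 regions covered 811 of 821 (98.8%) in Spon2M, and 1 region held 2 members in Spon3F. Several of the Spon2M regions had means beyond -0.4, among them -0.41 over 170 members, though their fitted levels did not reach 0.4. Others had means short of it, such as -0.36 over 66 members. The share over all probes at that filter, pooled over the tumors of a group, was 5.04% in the spontaneous and 0% in the post-PHx tumors. Shares over all probes are not given for single tumors. Spon6F had no deleted member at either filter. The call on Spon2M thus changed with the filter and with the background correction.

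Bins of 1 Mb over all autosomes and X were fitted with limma. In the post-PHx tumors 0 of the 44 bins of the region differed from 0 at an adjusted p below 0.05. Over the genome 0% of 2168 bins were lower and 0% were higher. The highest bin of the region in these tumors, 54 to 55 Mb, was not called and stood at 0.12 ± 0.05 (SE, limma, adjusted p = 0.399). This bin holds probes of Adra2a, an alpha-2 adrenergic receptor, and Shoc2, a scaffold of Ras to Raf signaling. PHx4M, in which a probe of Adra2a was outlying, was the highest there (0.33), and without it the mean of the other 5 was 0.08. It was the highest bin in the spontaneous tumors too (-0.01 ± 0.14, SD, n = 6), although the fitted difference there was -0.13. The spontaneous minus post-PHx contrast, which the rule used, gave 0 of 44 bins called, with 0% of all bins lower and 0% higher, and nothing is read from that count. Fitted differences of the 44 bins lay between -0.25 and -0.12, with a median of -0.16, against -0.01 over all bins. With the slide as a block the median difference was -0.09, which rests only on the slide that held both groups.

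The lowest bin of the spontaneous tumors was 28 to 29 Mb (-0.30 ± 0.15, SD, n = 6), with 12 probes, among them those of Glis3 and Rfx3, both transcription factors, and Slc1a1, a glutamate transporter. Its level was -0.41 in Spon1M, -0.36 in Spon2M, -0.47 in Spon3F, -0.28 in Spon4F, -0.05 in Spon5F and -0.21 in Spon6F. Spon3F, otherwise near 0, was the lowest tumor in this bin, and 2 of its probes, 1 each of Glis3 and Rfx3, were outlying there. The same 2 probes were low, though short of outlying, in Spon1M (-0.96 at Glis3 and -0.79 at Rfx3) and in Spon4F (-0.85 and -0.96). In the post-PHx tumors the lowest bin was 22 to 23 Mb, with 4 probes, 3 of them of Trpm3, a cation channel gene, and 1 without a gene name (-0.10 ± 0.05, SD, n = 6). Bin profiles correlated between tumors over the 44 bins, with a median r of 0.51 for 18 pairs on the same slide and 0.30 for 48 pairs on different slides, as a description, since all arrays share the same probes.

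Genes of growth control followed the chromosome. Of the 27 genes of this list, 24 had members, with 47 probes. All 24 were below 0 in Spon1M, 22 in Spon2M, 22 in Spon6F and 18 in Spon4F, against 11 in Spon3F, 12 in Spon5F and 6 to 14 in the post-PHx tumors. Over all 392 named genes 384, 362, 343 and 291 were below 0 in the first 4 of these tumors (98.0%, 92.3%, 87.5% and 74.2%), against 100%, 91.7%, 91.7% and 75% of the list. The median over the list was -0.25 in Spon1M, -0.29 in Spon2M and -0.13 in Spon6F, against -0.26, -0.40 and -0.15 over all 392 named genes. The list was therefore less low than the named genes as a whole in Spon2M.

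Fas, the death receptor, was -0.42 in Spon1M, -0.51 in Spon2M and -0.26 in Spon6F, but its 2 probes also averaged -0.12 ± 0.06 (SD, n = 6) in the post-PHx tumors. Mxi1, an antagonist of Myc, was below 0 in all 6 spontaneous tumors, from -0.39 in Spon2M to -0.19 in Spon3F, with a post-PHx mean of -0.06. Jak2, the cytokine receptor kinase, was -0.30 in Spon1M, -0.22 in Spon2M and -0.12 in Spon6F. Tcf7l2, a transcription factor of Wnt signaling, was -0.17, -0.30 and -0.17, Smc3, a subunit of cohesin, -0.34, -0.48 and -0.12, and Pik3ap1, an adaptor of PI3-kinase, -0.29, -0.61 and -0.12 in the same order. Kif11, the mitotic kinesin, was -0.15 in Spon1M and -0.14 in Spon2M but 0.16 in Spon6F, and its post-PHx values were all above 0, between 0.11 and 0.22. Cd274, which encodes the checkpoint ligand PD-L1, was -0.88 in Spon1M and 0.33 in Spon2M. Of its 2 probes, 1 was outlying in Spon2M, and the same probe deviated by -0.98 in Spon1M, short of outlying.

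Of 38 genes of liver metabolism, 32 had members, with 59 probes. Of these, 31 were below 0 in Spon1M, 30 in Spon2M, 27 in Spon6F and 24 in Spon4F, against 17 in Spon3F, 16 in Spon5F and 9 to 18 in the post-PHx tumors. In the first 4 of these tumors that was 96.9%, 93.8%, 84.4% and 75% of the list, beside the shares over all named genes given above. The median over the list was -0.25 in Spon1M, -0.49 in Spon2M and -0.13 in Spon6F. The Cyp2c genes, cytochromes P450 that oxidize drugs and fatty acids, were low together in Spon1M and Spon2M. Cyp2c54, the gene with the most probes of the list (6), was -0.23 in Spon1M, -0.40 in Spon2M and -0.11 in Spon6F. Cyp2c29, Cyp2c38, Cyp2c39, Cyp2c44, Cyp2c55, Cyp2c65 and Cyp2c70 lay between -0.44 and -0.15 in Spon1M, between -0.63 and -0.25 in Spon2M and between -0.25 and -0.06 in Spon6F. These paralogs are near-identical in parts, so cross-hybridization among them cannot be told apart from their own signal.

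Gldc, the glycine decarboxylase, was -0.40 in Spon1M, -0.58 in Spon2M and -0.23 in Spon6F. Lipa, the lysosomal acid lipase, was -0.40, -0.54 and -0.27, and Abcc2, an export pump of the bile canaliculus, -0.25, -0.64 and -0.05. Vldlr, a lipoprotein receptor, was -0.51 in Spon1M and -0.79 in Spon2M, but -0.02 in Spon6F. Among the desaturases, Scd3 was -0.26 in Spon1M, -0.45 in Spon2M and -0.10 in Spon6F, and Scd2 was -0.25, -0.51 and 0.01. Scd1, the main hepatic stearoyl-CoA desaturase, had 1 probe, which was above 0 in all 12 tumors, between 0.11 and 0.66 in the spontaneous and with a mean of 0.42 ± 0.08 (SD, n = 6) in the post-PHx tumors. It was the 1 gene of this list above 0 in Spon1M (0.23), where it was below that post-PHx mean.

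The long genes, 12 of 13 with members, had medians of -0.27 in Spon1M, -0.44 in Spon2M and -0.15 in Spon6F, next to those of all named genes, and 11, 12 and 11 of the 12 were below 0. Ablim1, an actin-binding protein gene with 1 probe, was -0.53, -0.91 and -0.25, and Gfra1, a GDNF receptor with 2 probes, -0.37, -0.66 and -0.20. Smarca2, the chromatin remodeling ATPase, was 0.05 in Spon1M, -0.28 in Spon2M and -0.04 in Spon6F, the 1 gene of the list above 0 in Spon1M. No list was tested.

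Of genes with at least 3 members, Glis3, a zinc finger transcription factor, had the lowest mean over the 6 spontaneous tumors (-0.37 ± 0.34, SD, n = 6), followed by Trpm3 (-0.32 ± 0.21), Vps13a (-0.30 ± 0.19), AK080606 (-0.26 ± 0.14) and Pcgf6, a Polycomb group member (-0.26 ± 0.14). The mean of Glis3 drew most on Spon3F, at -0.95, where 1 of its 3 probes was outlying. That probe was also low in Spon1M (-0.96) and Spon4F (-0.85). Trpm3, Vps13a and AK080606 were also low in the post-PHx tumors, at -0.15 ± 0.05, -0.10 ± 0.06 and -0.11 ± 0.06 (SD, n = 6), so part of their rank was shared by both groups. At the other end were Mgea5, the O-GlcNAcase (-0.04 ± 0.16), Gprk5, a receptor kinase (-0.05 ± 0.18), Cnnm2 (-0.07 ± 0.19), Atrnl1 (-0.07 ± 0.16) and AK141807 (-0.08 ± 0.19). All 5 of these were below 0 in Spon1M, Spon2M and Spon6F, and all 5 had post-PHx means above 0, between 0.03 and 0.13.

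Single members stood far from the level of the chromosome. On at least 1 array 44 of the 823 members lay over 1 log2 unit from the median of the members, 33 of them on 1 array, 3 on 2 arrays and 8 on 3. Spon3F had 29, all low, Spon1M had 8, all low, and Spon2M had 14 high and 1 low, while Spon4F, Spon5F and Spon6F had 0 and the post-PHx arrays 0 to 5. The share was 3.56% of the members in Spon3F, beside 3.78% of all autosomal probes taken against the median of their own chromosome, and 0.974% beside 1.32% in Spon1M. In these 2 tumors the share of the members was not above that of all autosomal probes, which include the members. In Spon2M the share was 1.83% beside 1.24%.

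The same probes were outlying on 3 arrays of 1 slide, in opposite directions. All 8 low members of Spon1M were also low in Spon3F, and all 8 were high in Spon2M. Nkx2-3, a homeobox gene, at chr19:43668780 to 43668839, was -2.64 in Spon1M, -2.86 in Spon3F and 2.07 in Spon2M, but between -0.12 and 0.52 in the other 9 tumors. Slc25a28, a mitochondrial iron carrier, was -2.87, -2.45 and 1.33, and Aldh18a1, an enzyme of proline synthesis, -2.68, -2.64 and 1.68. The median deviation of the outlying members was -2.11 in Spon1M, -2.30 in Spon3F and 1.79 in Spon2M. Members next to them that were not outlying themselves had median deviations of -0.02, -0.01 and -0.03. Neighbours that were outlying too were left out of these medians. The Got1 probe next to Nkx2-3 did share the direction, deviating by -0.93 in Spon1M, -2.20 in Spon3F and 1.34 in Spon2M.

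The channels of these probes differed between arrays. In Spon1M and Spon3F the tumor channel of the members outlying on that array was low (medians of -2.18 and -2.05) with the liver channel at 0.03 and 0.10. In Spon2M the liver channel was low instead (-1.82), with the tumor channel at -0.38, near its level over the chromosome. In Spon4F, on the same slide, both channels were low at Nkx2-3 (-2.40 in liver and -1.74 in tumor), Slc25a28 (-2.33 and -2.35) and Aldh18a1 (-2.28 and -2.21), and the ratios were 0.24, -0.18 and 0.12. Low signal at Nkx2-3, Slc25a28 and Aldh18a1 was thus present in the liver DNA of Spon2M and Spon4F. It was also present in the tumor DNA of Spon1M, Spon3F and Spon4F, and its source was not tested. Of the 29 outlying members of Spon3F, only 8 were shared with Spon1M and 11 with Spon2M. The 2 members in deleted regions at the filter of 0.4 were the adjacent probes of Got1, the cytosolic aspartate aminotransferase, and Nkx2-3, called deleted in Spon1M (-1.69) and Spon3F (-2.49) and amplified in Spon2M (1.36). The Got1 probe was itself outlying in Spon3F and Spon2M, and at -1.19 was not outlying in Spon1M. Without the arrays of Spon1M and Spon3F, 0 members were in deleted regions, while the mean level of the spontaneous tumors was -0.16 with them and without them. Without Spon2M as well, the mean of the remaining 3 spontaneous tumors was -0.08 and the difference between groups -0.07.

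**Figure D5:**
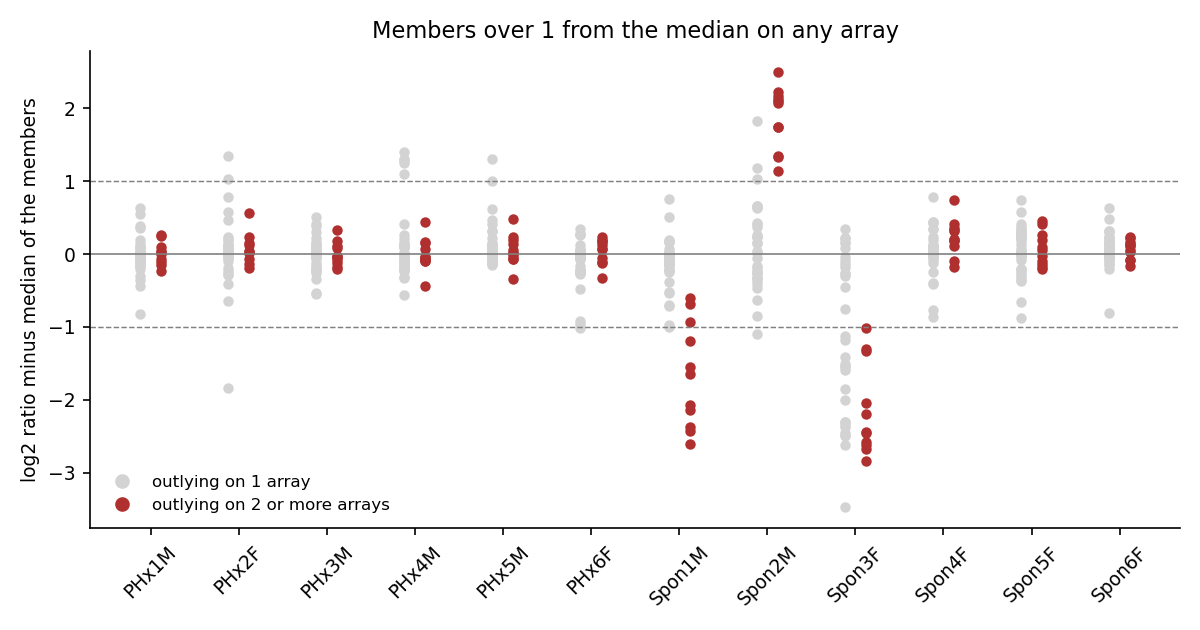
Log2 ratio minus the median of the members (y axis) by tumor (x axis) for the 44 members over 1 from that median on any array (dashed lines), grey where outlying on 1 array and red where outlying on 2 or more. The red points lie low in Spon1M and Spon3F, high in Spon2M, and near 0 in the other 9 tumors.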

How the data were processed

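Genomic DNA of 12 liver tumors was compared with matched non-tumor liver on 2-colour Agilent mouse CGH arrays. The deposited files are scanner output of Feature Extraction 10.5.1.1. The authors' software gave each spot a background-corrected intensity per channel and a deposited log10 ratio of tumor (Cy5) over liver (Cy3), with its error, on mm8. The authors' own calls were not used.

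Log10 ratios were converted to log2. Control spots and spots flagged as outliers were dropped, replicate spots were averaged, and the autosomal median of every array was subtracted. Tumors were grouped from the labels. The members and gene lists were chosen with earlier results of these data known. The genes named are 3 lists (growth control, liver metabolism, long genes), the 5 lowest and 5 highest genes with at least 3 members, the extreme bins, and outlying probes chosen after their values were seen. Gene names are those of the files; of 392, 239 are symbols and 48 more synonyms in the RefSeq table of GRCm38.p6.

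Group values were tested by exact permutation in scipy 1.17.1, and bins of 1 Mb with at least 3 probes by limma 3.58.1 in R 4.3.3 with Benjamini-Hochberg adjustment. Regions were called in Python 3.11.15 with weights from the deposited errors. The bin fit and the caller were tested on simulated data. Alternatives were normexp correction (offset 50), other centrings, probe filters, region starts, bin sizes, caller settings, slide, sex and tumor number as terms, and each tumor left out. The arrays carry no counts, and 6 tumors per group limit the precision. Each tumor came from a separate mouse. A gene of the growth control list is not reported here by name.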

Additional observations from a re-analysis of the deposited data

Results flagged for a closer look

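In 11 of 162 groups of 6 tumors compared, 1 tumor lay apart from the others of its group by a gap that is large for the range of the group; about 1 in 20 such groups, here 8.1, is expected by chance. PHx5M had the highest chromosome 19 level of the post-PHx tumors (0.030) and the lowest share of members below 0 (41.1%). PHx5M was also apart in Cyp2c54 (0.28) and Cnnm2 (-0.0057). In the same group PHx1M was apart in Cyp2c70 (0.27) and Vps13a (-0.21), PHx2F in Scd4 (-1.03) and Vldlr (-0.25), and PHx6F in Cyp2c65 (0.11). Among the spontaneous tumors Spon2M was apart in Blnk (-0.56) and Smarca2 (-0.28). Each of these genes rests on 2 to 6 probes.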

How the results depend on the processing

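The mean level of the spontaneous tumors stayed between -0.17 and -0.15 under every change of correction, centring, probe filter, region start or summary, and the post-PHx mean between -0.01 and 0.00 with no p below 0.05. With each tumor left out in turn the spontaneous mean ranged from -0.19 to -0.10 and the difference between groups from -0.18 to -0.10. Leaving out 1 post-PHx tumor gave 5 tumors, for which the test cannot reach 0.05. The difference was -0.08 on the slide that held both groups, and with slide as a block it was -0.08 too. These are the same comparison, of Spon5F and Spon6F with PHx5M and PHx6F, since the other slides held 1 group each. With sex as a term the difference was -0.19. With the tumor number as a replicate block it was -0.15, as without it; the numbers belong to different mice, and deviations of same-numbered tumors correlated between -0.14 and 0.39. No bin of the region was called under any alternative. Over the genome, the post-PHx fit after normexp correction called 69 of 2168 bins lower and 6 higher. The number of pairs of a member and a spontaneous tumor in deleted regions, 4, became 2 at a score threshold of 8 and 0 with at least 5 probes. It became 1634 at a filter of 0.25. After normexp correction it was 820, and no share over all probes is given for that setting. Without the arrays of Spon1M and Spon3F it was 0, an alternative chosen after seeing the data. Chosen likewise were that without these and Spon2M (a level of -0.08) and those of 60-base probes and of centring on the other autosomes' medians. The difference in green signal over background turned to -0.055 on the slide with both groups (exact permutation p = 1, where 2 against 2 tumors cannot reach 0.05); left-out tumors gave 0.71 to 0.96. For the red signal they gave 0.28 to 0.57, the last without Spon6F (exact permutation p = 0.0173). Of 1043 recomputed values of 75 named genes, 3 moved by more than the SD between tumors. Alternatives with a GC correction were not run, since the probe sequences were not used here. Noise between probes and 6 tumors per group limit what could be detected.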
